A study of Mus musculus with 60 samples.

Results

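Oxidative phosphorylation genes of the nucleus were examined in the nascent RNA of mouse embryonic stem cells. Members were the genes whose symbol starts with Nduf, Sdh followed by a to d, Uqcr, Cox4, Cox5, Cox6, Cox7, Cox8 or Atp5, together with Cyc1. This gave 99 of the 24260 gene symbols in the data, covered by 128 RefSeq transcripts, and the transcript with the highest summed level stood for each gene. By symbol, 38 genes belonged to complex I, 4 to complex II, 9 to complex III, 18 to complex IV and 17 to complex V, and 12 assembly factors and 1 pseudogene (Ndufs5-ps) also met the rule. Ndufa4 was counted with complex I by its symbol, although its protein is a subunit of complex IV.

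All 4 libraries came from the E14 line, an established embryonic stem cell line, grown on gelatin in medium with serum and LIF, a cytokine that holds these cells in the pluripotent state. The siCtrl group (2 libraries) received a control siRNA and the siEsrrb group (2 libraries) an siRNA against Esrrb, both for 72 h. The measured RNA is that bound to chromatin after the cytoplasm and nucleoplasm were washed away, a fraction enriched for growing transcripts, and reads from introns and exons are both counted. The series covers what loss of Esrrb-dependent enhancer activity does to transcription, and its other 56 samples were not analysed here.

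Oxidative phosphorylation makes most of the ATP of resting tissues in the inner mitochondrial membrane. Complexes I and II pass electrons from NADH and succinate to ubiquinone, complex III hands them to cytochrome c, complex IV reduces oxygen, and complex V (ATP synthase) uses the resulting proton gradient. Most subunits are encoded in the nucleus, and their promoters are known targets of NRF1, of the ETS factor GABP and of the estrogen-related receptors. Esrrb, an orphan nuclear receptor of the naive pluripotency network, belongs to that receptor family, whose other members Esrra and Esrrg are established activators of these genes in muscle and other tissues that burn much fuel.

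The libraries were checked first. Depths were 24764879 and 68002338 reads in siCtrl replicates 1 and 2 and 22363943 and 61857158 in siEsrrb replicates 1 and 2, so both replicate 1 libraries were the shallower ones. Below, a level is the deposited RPKM (reads per transcript length and library depth) after scaling the libraries to each other, and an RPKM is a level per length. Esrrb (NM_011934) had 3.39 and 3.10 scaled RPKM in siCtrl replicates 1 and 2 and 1.50 and 2.08 in siEsrrb, which is 44.2% and 67.0% of control. Both siEsrrb libraries lay below both controls, further below in replicate 1 (fitted log2 fold change -0.72, SE 0.15, limma adjusted p 0.281). All 10 markers of embryonic stem cells were above the expression minimum of 0.5 mean RPKM, with summed RPKM of 111.5 and 117.9 in siCtrl and 106.9 and 106.6 in siEsrrb. Among them, Zfp42 had 17.9 and 17.6 RPKM in siCtrl and 8.05 and 10.8 in siEsrrb and Nanog 5.37 and 7.10 against 3.45 and 5.07, while Pou5f1 had 11.5 and 15.9 against 18.8 and 16.8. Of the markers of other cell types, 0 of 5 muscle, 0 of 4 mesendoderm, 0 of 5 primitive endoderm, 1 of 5 trophectoderm (Tfap2c), 1 of 9 fibroblast (Fn1) and 3 of 4 neuroectoderm genes passed that minimum, and the fibroblast gene Lum was at 0 in all 4 libraries. Summed RPKM of the neuroectoderm markers were 5.21 and 5.11 in siCtrl and 7.42 and 8.13 in siEsrrb. Most of that gap was Nes (2.87 and 2.88 against 5.45 and 5.60), and Sox1 was also higher (0.570 and 0.510 against 0.709 and 0.965). Tubb3 was lower (0.541 and 0.473 against 0.308 and 0.297) and Pax6 overlapped (1.22 and 1.25 against 0.953 and 1.26). The part of these markers in the results below was not tested.

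Before any correction for transcript length, the fold changes of the respiratory chain genes were centred near 0, as were those of all tested genes. The tested members had shorter transcript models (median 6964 bases) than all tested genes (16540 bases). Fold changes fell with length, so shares over all 9758 tested genes do not come from genes of like length. Against genes of like length, the members' median was -0.06. The median log2 fold change of the 88 members above the minimum, siEsrrb against siCtrl on the log2(scaled RPKM + 0.5) scale, was -0.01, beside -0.001 over all 9758 tested genes, and 49 of the 88 (55.7%) lay within 0.1 of 0, beside 49.5% of all tested genes. In limma, 0 of 88 members passed an adjusted p of 0.05 (smallest adjusted p 0.316), where 0.0% of all tested genes passed. At an unadjusted p under 0.05, 3 members were lower (3.41%, beside 5.33% of all tested genes) and 0 were higher (5.92% of all tested genes). The 3 were Cox5a, Atp5g1 and Ndufb5, described with their complexes. On whole reads recovered from the RPKM, voom without a replicate term also passed 0 members (smallest adjusted p 0.19) and had 2 lower members with an unadjusted p under 0.05 (2.27%, beside 6.44% of all tested genes). When replicate numbers entered voom as a block, although the labels do not state a pairing, it passed 7 lower members (beside 15.1% of all tested genes lower) and 1 higher (beside 13.1% higher). Fewer transcripts per cell and fewer transcribing cells cannot be told apart in such bulk RNA.

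The labels do not call the nascent RNA replicates separate cultures, and the series text leaves them out of its statement on biological replicates. The p-values therefore rest on the spread of these libraries, which may be technical. With 2 libraries in each group the smallest exact permutation p would be 0.333, and no such test was run. As a description, 22 members (25.0%) had both siEsrrb libraries below both controls, against 22.0% of all tested genes. In the other direction, 11 members (12.5%) had both siEsrrb libraries above both controls, against 21.8% of all tested genes. The libraries of the remaining 55 members overlapped. The members without such overlap in either direction spanned log2 fold changes of -0.32 to 0.31.

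**Figure D1:**
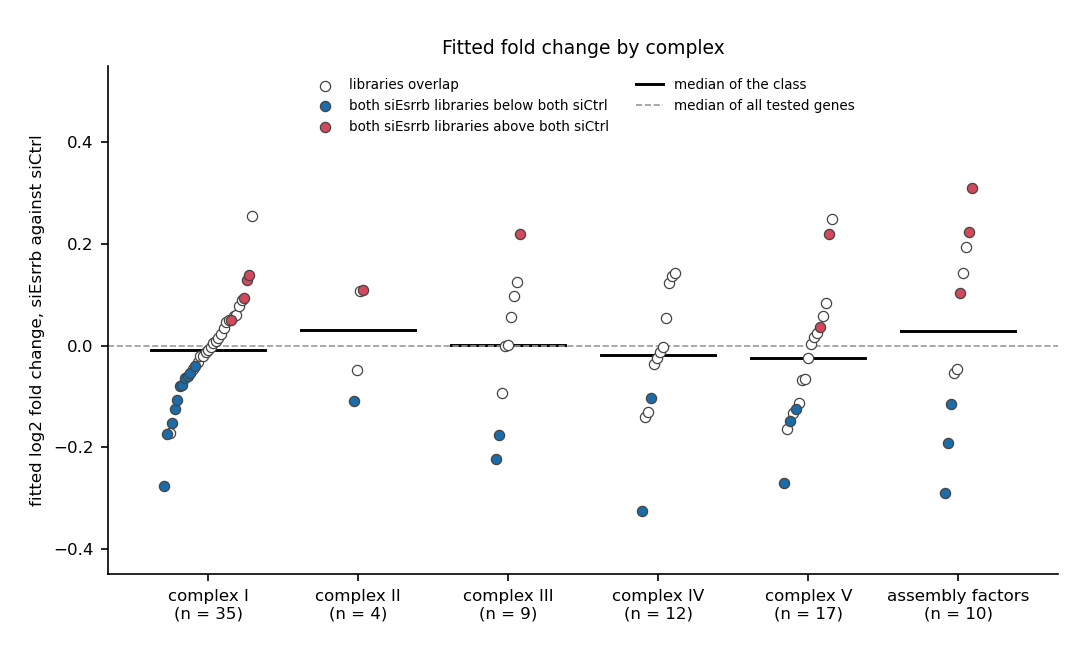
Fitted log2 fold change of the tested members (points), siEsrrb against siCtrl, by complex, with the median of each class (black bars) and of all tested genes (dashed line). Filled points are the 22 lower and 11 higher members whose libraries do not overlap; class medians lie between -0.02 and 0.03.

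The fold changes of single members depended on the replicate pair. Setting siEsrrb against siCtrl within one replicate number, the median over the 88 members was 0.03 in replicate 1 and -0.05 in replicate 2. The folds spread more in the shallower replicate 1 (SD 0.197) than in replicate 2 (SD 0.103). Members were negative in both replicates in 34 cases (38.6%, beside 39.7% of all tested genes) and positive in both in 19 (21.6%, beside 37.8%), and 35 changed sign between replicates (39.8%, beside 22.5%). Of these 35, 29 were positive in replicate 1 and negative in replicate 2, beside 1109 of the 2195 sign changes over all tested genes. Across members the folds of both replicates correlated with r = 0.39 (Spearman 0.41, n = 88), beside r = 0.53 (0.68) over all 9758 tested genes. Genes are not independent replicates, and within a replicate number the folds of all genes share the same pair of libraries.

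**Figure D2:**
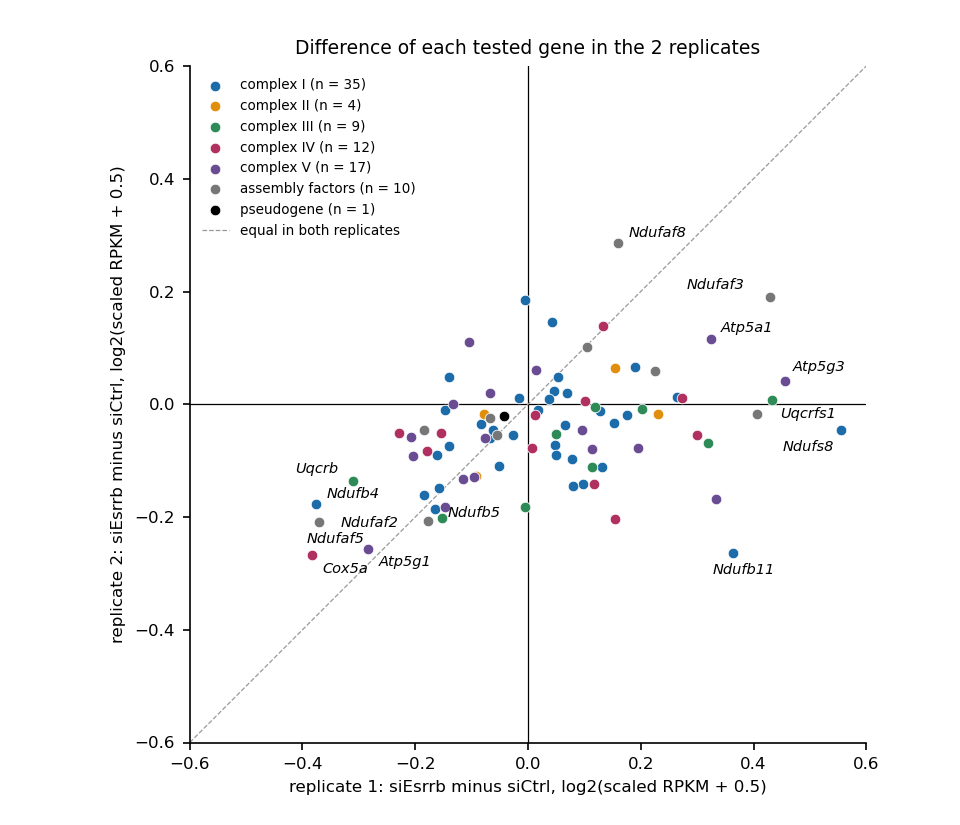
Each point is 1 of the 88 tested members; the axes give the log2 difference of siEsrrb minus siCtrl in replicate 1 and in replicate 2, and colours give the complex. Points spread more along the replicate 1 axis (SD 0.197) than along the replicate 2 axis (SD 0.103), with 34 members in the lower left and 19 in the upper right quadrant.

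Promoters were read for known motifs, because the knocked-down factor binds the estrogen-related receptor element. RefSeq promoters (GRCm38.p6, from 250 bases before to 50 bases after the annotated start) were found for 80 of the 99 members, 85 promoters in all, and 72 of these members were tested. On both strands, the extended element TCAAGGTCA was present in 2 of 85 (2.35%, Atp5g3 and Sdhd), beside 0.423% of all 32851 promoters. Its core AAGGTCA, which lies inside TCAAGGTCA, was present in 8 (9.41%, beside 4.72%). The palindromic consensus motif of NRF1 was present in 7 (8.24%, beside 0.971%). The ETS motif CCGGAAG was present in 22 (25.9%, beside 8.86%). All 32851 promoters include those of genes under the expression minimum, so these shares do not set the members beside expressed genes alone. A match is a description of letters and not a binding site.

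The 250 bases before the start are shown, 5′ to 3′ in the direction of the gene, for the member with the full receptor element before its start, the member with its core and the largest negative fold of complex I, and the 2 members with the smallest p. Capitals mark the element or its core, in Atp5g3 as the reverse complement TGACCTTGA, and the lower case of the other pair says only that none of the 4 motifs is in the window. The regions are chr2:73911327-73911576 (minus strand) for Atp5g3, chr16:37654369-37654618 (minus) for Ndufb4, chr9:57520982-57521231 (plus) for Cox5a and chr11:96075632-96075881 (minus) for Atp5g1.
Atp5g3: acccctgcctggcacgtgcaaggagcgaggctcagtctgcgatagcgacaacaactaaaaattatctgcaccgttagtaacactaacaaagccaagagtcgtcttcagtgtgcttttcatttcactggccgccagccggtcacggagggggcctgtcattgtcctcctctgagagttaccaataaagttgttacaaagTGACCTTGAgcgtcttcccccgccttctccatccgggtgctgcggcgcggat
Ndufb4: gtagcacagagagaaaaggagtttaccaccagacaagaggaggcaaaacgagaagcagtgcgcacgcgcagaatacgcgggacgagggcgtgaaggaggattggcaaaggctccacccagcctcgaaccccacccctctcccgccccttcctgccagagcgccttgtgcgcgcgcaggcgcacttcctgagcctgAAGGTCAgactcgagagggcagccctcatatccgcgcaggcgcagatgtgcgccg
Cox5a: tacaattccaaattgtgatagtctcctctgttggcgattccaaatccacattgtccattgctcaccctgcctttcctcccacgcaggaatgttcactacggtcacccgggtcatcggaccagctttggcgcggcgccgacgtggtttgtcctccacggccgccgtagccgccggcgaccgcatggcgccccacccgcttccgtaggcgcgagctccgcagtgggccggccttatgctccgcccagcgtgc
Atp5g1: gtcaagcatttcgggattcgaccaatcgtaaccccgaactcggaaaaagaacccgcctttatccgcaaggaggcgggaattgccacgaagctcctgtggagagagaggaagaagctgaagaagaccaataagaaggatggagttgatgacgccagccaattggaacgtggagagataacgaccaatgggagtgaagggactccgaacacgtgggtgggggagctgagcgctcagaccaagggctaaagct

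Apart from the pair with the full receptor element, medians with and without each motif lay close to 0. The 2 genes with TCAAGGTCA, Atp5g3 and Sdhd, had fitted log2 fold changes of 0.25 and 0.11, and the libraries of each overlapped between groups. Over the 7 tested members with AAGGTCA the median was 0.04, against -0.02 over the 65 without, and 1 of the 7 (Ndufb4) was lower and 1 (Atp5e) higher without overlap. The 7 members with the NRF1 motif had a median of 0.001 and the 65 without it -0.01. The 21 with the ETS motif had a median of 0.003 and the 51 without it -0.02. None of these differences was tested.

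Complex I, the NADH dehydrogenase, had 35 of 38 members above the minimum, and their median log2 fold change was -0.01. In 11 (31.4%) both siEsrrb libraries lay below both controls and in 4 (11.4%) above, beside 22.0% and 21.8% of all tested genes. Ndufb5, an accessory subunit of the membrane arm, had 1.50 and 1.56 scaled RPKM in siCtrl replicates 1 and 2 and 1.28 and 1.31 in siEsrrb. Replicates were close to each other and the groups stood apart (log2 fold change -0.17, SE 0.06, unadjusted p 0.0434, limma adjusted p 0.423). This came to 85.6% and 84.1% of control. Ndufb4, another accessory subunit of that arm, had 0.783 and 0.936 scaled RPKM in siCtrl and 0.489 and 0.770 in siEsrrb, 62.4% and 82.2% of control. Its groups met within a small margin, siEsrrb replicate 2 lying just below siCtrl replicate 1, and the largest gap was in replicate 1 (log2 fold change -0.28, SE 0.15, limma adjusted p 0.578). Ndufb4 rested on 125 and 466 reads in the controls and 68 and 340 in siEsrrb. Ndufa3, a small accessory subunit, followed at -0.15 (SE 0.08), with 1.60 and 1.74 against 1.38 and 1.52 scaled RPKM.

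The largest fold changes of complex I in the other direction, among members without overlap, were smaller. Ndufb9 had 1.64 and 1.87 scaled RPKM in siCtrl and 2.07 and 1.90 in siEsrrb (log2 fold change 0.14, SE 0.09, limma adjusted p 0.616). Only replicate 1 showed a gap of any size, with 126.2% of control against 101.2% in replicate 2. Ndufa11, a membrane-arm subunit, had 1.44 and 1.39 against 1.71 and 1.48 (0.13, SE 0.08), and Ndufa2, a small subunit of the matrix arm, 1.41 and 1.26 against 1.47 and 1.45 (0.09, SE 0.07).

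The 7 nuclear core subunits, which hold the flavin and the iron-sulfur clusters, had a median of -0.03. Without overlap, 2 were lower (28.6%, beside 22.0% of all tested genes) and 0 higher (beside 21.8%). Ndufs1, the large subunit of the electron input module, had 2.58 and 2.34 scaled RPKM in siCtrl and 2.25 and 2.17 in siEsrrb. The groups did not overlap, at 87.4% and 92.6% of control (log2 fold change -0.13, SE 0.08, limma adjusted p 0.612); the annotation lets Ino80dos overlap it, and strand was not stated for the counts. Ndufs3, a subunit of the ubiquinone module, was the other, at -0.06 (SE 0.06) and 92.9% and 96.9% of control. Ndufv2, at -0.17 (SE 0.11), had 1.45 and 1.71 in siCtrl and 1.22 and 1.48 in siEsrrb, lower than control within each replicate number but overlapping between groups, and its span overlaps Ankrd12. Ndufv1, which carries the NADH-binding site, had 4.59 and 4.53 against 4.76 and 4.28 (-0.01, SE 0.09). Ndufs7, an iron-sulfur subunit, was at -0.03. Ndufs8 had 0.856 and 1.16 in siCtrl and 1.49 and 1.11 in siEsrrb (0.25, SE 0.16), high in siEsrrb replicate 1 and level with its control in replicate 2.

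Levels within complex I differed more between genes than between groups. The highest mean RPKM was 8.58 times the lowest among tested members. Ndufa7 ranked first with 4.63 ± 0.142 scaled RPKM in siCtrl and Ndufv1 next with 4.56 ± 0.0443 (SD, n = 2 each), a gap smaller than the SD of Ndufa7. The transcript taken for Ndufa7 was a short noncoding model of 1543 bases, while the coding model of 13745 bases had deposited RPKM of 2.30 and 2.89 in siCtrl and 2.39 and 2.75 in siEsrrb. Ndufa4l2, a paralog of Ndufa4 known as a hypoxia-responsive gene, had 0.210 and 1.17 scaled RPKM in siCtrl and 0.219 and 1.15 in siEsrrb. It was low in both replicate 1 libraries and high in both replicate 2 libraries, and its span overlaps Shmt2. Its recovered reads, 11 and 10 against 190 and 167, are settled only up to a whole factor. Ndufb11, which overlaps Rbm10, had 1.46 and 1.41 in siCtrl and 2.02 and 1.09 in siEsrrb, so that its siEsrrb libraries lay on either side of the controls. Ndufa8, Ndufb3 and Ndufs5 were under the minimum, with 0.204 to 0.539 deposited RPKM over the 4 libraries.

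Complex II, succinate dehydrogenase, is the small complex shared with the citric acid cycle, and its 4 genes were all tested (median log2 fold change 0.03). Sdha, the flavoprotein that oxidises succinate, had 2.79 and 2.82 scaled RPKM in siCtrl and 3.16 and 2.97 in siEsrrb. Both siEsrrb libraries lay above both controls, at 113.4% and 105.3% of control (log2 fold change 0.11, SE 0.08, limma adjusted p 0.644). Sdhc, a membrane anchor, had 0.765 and 0.879 in siCtrl and 0.687 and 0.763 in siEsrrb, just short of overlap (-0.11, SE 0.08). The iron-sulfur subunit Sdhb was at -0.05 (SE 0.07) and the anchor Sdhd at 0.11 (SE 0.09), both with overlapping groups. By level, Sdha (2.81 ± 0.0223 in siCtrl) stood above Sdhb (1.51 ± 0.0485) and Sdhd (1.49 ± 0.169), which did not differ beyond their spread, and Sdhc (0.822 ± 0.0807, SD, n = 2 each) was lowest.

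Complex III, the cytochrome bc1 complex, had all 9 members above the minimum and a median of 0.001. Without overlap, 2 were lower (22.2%, beside 22.0% of all tested genes) and 1 higher (11.1%, beside 21.8%). Uqcrb, which lines the ubiquinone pocket, had 1.16 and 1.31 scaled RPKM in siCtrl and 0.843 and 1.15 in siEsrrb (log2 fold change -0.22, SE 0.13, limma adjusted p 0.58). The siEsrrb replicate 1 library was the low one, and siEsrrb replicate 2 nearly reached siCtrl replicate 1. Uqcrq, a small membrane subunit, had 2.36 and 2.31 in siCtrl and 2.07 and 1.94 in siEsrrb, 87.8% and 84.2% of control (-0.18, SE 0.07, unadjusted p 0.0625, limma adjusted p 0.464). Its groups stood apart by more than their spread, but its span overlaps Gdf9. Uqcrfs1, the Rieske iron-sulfur protein, had 1.06 and 1.26 in siCtrl and 1.60 and 1.27 in siEsrrb. Its fold came from replicate 1 (151.5% of control) and was close to 0 in replicate 2 (100.8%), with 0.22 fitted (SE 0.12).

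Cyc1, the cytochrome c1 subunit, was the most abundant nascent transcript of complex III, with 10.7 and 8.75 scaled RPKM in siCtrl and 10.6 and 7.65 in siEsrrb. It differed between replicate numbers more than between groups, high in both replicate 1 libraries and low in both replicate 2 libraries (-0.09, SE 0.21). The core proteins Uqcrc1 and Uqcrc2 were at 0.001 (SE 0.09) and 0.06 (SE 0.08). The highest mean RPKM of the complex was 8.30 times the lowest.

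Complex IV, cytochrome c oxidase, had 12 of 18 members above the minimum, with a median of -0.02. Cox5a and Cox7a2l were lower without overlap (16.7%, beside 22.0% of all tested genes) and 0 were higher (beside 21.8%). Cox5a (NM_007747), an early-assembling subunit on the matrix side, had 1.92 and 1.99 scaled RPKM in siCtrl and 1.36 and 1.57 in siEsrrb. Both siEsrrb libraries stood well below the closely agreeing controls, at 70.6% and 78.9% of control. On the log2(scaled RPKM + 0.5) scale this was the largest negative fold change of the 88 tested members (-0.32, SE 0.08, unadjusted p 0.0161, limma adjusted p 0.339). With a pseudocount of 0.1 it came after Ndufaf5 and Ndufb4, at -0.40 against -0.42 for each of them. Over the 14 alternative fits that held it, its log2 fold change ran from -0.40 to -0.25. Leaving out 1 library could not change its sign, because its groups did not overlap. In reads, Cox5a had 507 and 1640 in siCtrl and 312 and 1148 in siEsrrb. Cox7a2l, which stabilises supercomplexes of III and IV, had 1.65 and 1.65 in siCtrl and 1.43 and 1.57 in siEsrrb (-0.10, SE 0.07). Cox5b, a zinc-binding partner of Cox5a in the complex, was at 0.05 (SE 0.10), with 2.87 and 3.31 against 3.12 and 3.33, and its groups overlapped. Cox4i1, the subunit through which ATP is thought to regulate the enzyme, had 6.48 and 6.36 in siCtrl and 7.07 and 5.72 in siEsrrb (-0.01, SE 0.13).

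Several complex IV subunits come as isoform pairs, one widespread and one known from muscle, lung or testis. The muscle isoforms Cox6a2, Cox7a1 and Cox8b, the lung isoform Cox4i2 and the testis isoforms Cox7b2 and Cox8c were under the minimum and at or below 0.348 deposited RPKM in every library. Their widespread partners Cox6a1, Cox7a2, Cox8a, Cox4i1 and Cox7b had 1.95 to 6.48 scaled RPKM in the controls. Cox6b2, named as the testis isoform of Cox6b1, did not follow this division. It had 6.29 and 9.84 scaled RPKM in siCtrl and 5.30 and 9.47 in siEsrrb, the highest mean of complex IV, against 1.60 and 1.51 and 1.62 and 1.48 for Cox6b1. Cox6b2 was lower in both replicate 1 libraries than in both replicate 2 libraries and did not separate the groups (-0.14, SE 0.36). Its model of 1111 bases carried 165, 804, 121 and 687 reads in the same order. That model was taken as the highest of 6 transcripts, while Cox6b1 had 1 transcript, of 9178 bases. Levels on the other Cox6b2 transcripts were not compared, so its rank may depend on this choice. Next in level were Cox7c and Cox4i1 (6.27 ± 0.575 and 6.42 ± 0.0827 in siCtrl, SD, n = 2 each), which did not differ from each other beyond their spread.

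**Figure D3:**
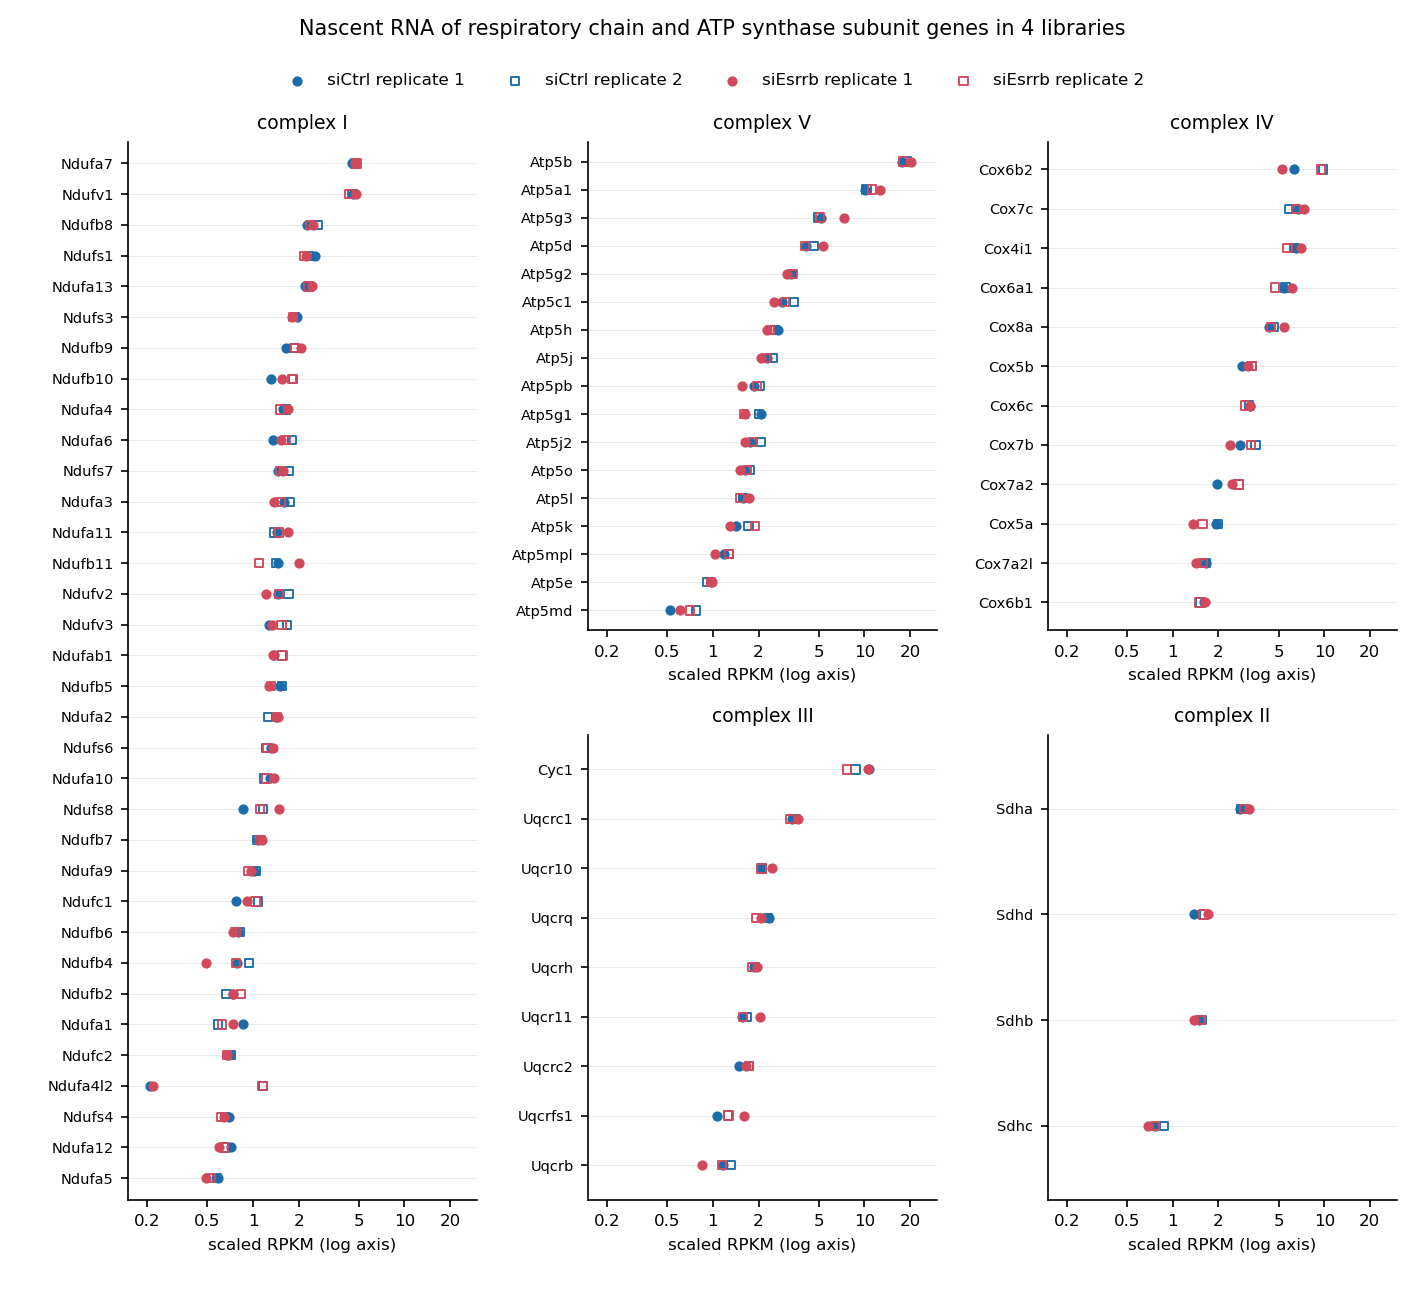
Scaled RPKM of 76 tested subunit genes in each of the 4 libraries, 1 panel per complex, genes ordered by mean; blue symbols are siCtrl and red siEsrrb, circles replicate 1 and open squares replicate 2. Genes differ far more in level (Atp5b near 18 to 20, Ndufa5 near 0.5) than libraries do, and the open and filled symbols of Ndufa4l2, Cox6b2 and Cyc1 separate by replicate.

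Complex V, ATP synthase, had all 17 members above the minimum, with a median of -0.02. Without overlap, 3 were lower (17.6%, beside 22.0% of all tested genes) and 2 higher (11.8%, beside 21.8%). Atp5g1, Atp5g2 and Atp5g3 encode the same mature c subunit of the rotating ring behind different import sequences. Atp5g1 (NM_001161419) had 2.09 and 2.01 scaled RPKM in siCtrl and 1.63 and 1.60 in siEsrrb. The spread within each group was small beside the gap, at 77.9% and 79.6% of control. Atp5g1 had the smallest p of the members (log2 fold change -0.27, SE 0.06, unadjusted p 0.0122, limma adjusted p 0.316). The 14 alternative fits that held it gave -0.39 to -0.22. Leaving out 1 library could not change its sign, because its groups did not overlap. It rested on 140 and 419 reads in siCtrl and 95 and 296 in siEsrrb. Atp5g2 had 3.26 and 3.34 in siCtrl and 3.09 and 3.39 in siEsrrb (-0.02, SE 0.08). Atp5g3 had 5.21 and 4.92 in siCtrl and 7.33 and 5.08 in siEsrrb (0.25, SE 0.19), high in siEsrrb replicate 1 alone. In the controls, Atp5g3 (5.06 ± 0.204) was thus above Atp5g2 (3.30 ± 0.0562) and Atp5g1 (2.05 ± 0.0585, SD, n = 2 each) by more than their spread.

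The catalytic head of the synthase carried the most nascent RNA of all members. Atp5b, the beta subunit, had 17.8 and 19.0 scaled RPKM in siCtrl and 20.4 and 18.0 in siEsrrb, overlapping between groups (0.06, SE 0.13), with small RNA genes inside its span. Atp5a1, the alpha subunit, had 10.0 and 10.3 in siCtrl and 12.7 and 11.2 in siEsrrb. Both siEsrrb libraries lay above both controls, more so in replicate 1 (126.4% of control) than in replicate 2 (108.8%), and the annotation lets it overlap Haus1 (0.22, SE 0.12, unadjusted p 0.133, limma adjusted p 0.568). Atp5e, the epsilon subunit, was the other higher member, by 0.04 (SE 0.06). Atp5c1, the gamma subunit of the central shaft, had 2.86 and 3.45 against 2.54 and 2.98 (-0.16, SE 0.13), lower than control within each replicate number but overlapping between groups. The stalk subunits Atp5h and Atp5j were lower without overlap, with 2.69 and 2.57 against 2.27 and 2.38 for Atp5h (-0.15, SE 0.07) and 2.29 and 2.50 against 2.07 and 2.23 for Atp5j (-0.12, SE 0.08). Atp5j shares its span with Gabpa. Within complex V the highest mean RPKM was 28.7 times the lowest, the widest range of the 5 complexes among tested members.

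Assembly factors are chaperones and enzymes that build the complexes without staying in them. Of the 12 with Ndufaf or Sdhaf symbols, 10 were tested (median 0.03), and Sdhaf3 and Sdhaf4 were under the minimum. Without overlap, 3 were lower (30.0%, beside 22.0% of all tested genes) and 3 higher (30.0%, beside 21.8%). Ndufaf5, which hydroxylates an arginine of Ndufs7, had 0.897 and 1.04 scaled RPKM in siCtrl and 0.580 and 0.834 in siEsrrb, 64.7% and 80.0% of control (-0.29, SE 0.13, limma adjusted p 0.514). Ndufaf2, a chaperone of late complex I assembly, had 0.565 and 0.567 in siCtrl and 0.442 and 0.424 in siEsrrb. Its libraries agreed closely within groups and stood apart between them, at 78.2% and 74.8% of control from 964 to 4422 reads (-0.19, SE 0.08, unadjusted p 0.0715, limma adjusted p 0.488). Ndufaf1 was at -0.12 (SE 0.07). In the other direction Ndufaf3, an early complex I factor, had 0.946 and 0.865 in siCtrl and 1.45 and 1.06 in siEsrrb (0.31, SE 0.13, limma adjusted p 0.491), the largest positive fold of all 88 tested members, from 33 to 102 reads. Ndufaf8, the known partner of Ndufaf5, had 0.852 and 0.921 against 1.01 and 1.23 (0.22, SE 0.09), and Ndufaf6 1.56 and 1.66 against 1.71 and 1.82 (0.10, SE 0.07). The pseudogene Ndufs5-ps (-0.03) is a near copy of Ndufs5 inside Zbtb20, and reads may be split between the copies.

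Counting error was set beside the spread between libraries. A 95% interval of the read ratio within a replicate number, which covers counting error only, lay below 0 in both replicates for 9 members (10.2%, beside 20.0% of all tested genes) and above 0 in both for 3 (3.41%, beside 15.8%). The 9 were Ndufb4, Ndufb5, Ndufs1, Ndufs4, Ndufv2, Cox5a, Atp5c1, Ndufaf2 and Ndufaf5, and the 3 were Sdha, Atp5a1 and Ndufaf6. For Cox5a the log2 ratio was -0.50 (-0.71 to -0.30) in replicate 1 and -0.34 (-0.45 to -0.23) in replicate 2. For Atp5g1, with fewer reads, it was -0.36 (-0.74 to 0.01) and -0.33 (-0.54 to -0.11), so its replicate 1 value alone was within counting error of 0. Reads per member had medians of 265 and 880 in siCtrl and 254.5 and 759 in siEsrrb. Over all tested genes the medians were 651 and 2086 in siCtrl and 563 and 1849 in siEsrrb. Fewer reads widen the interval, so the shares of members and of all tested genes above are not at like depth.

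Fold changes also moved with the length of the transcript model. Over all tested genes the median was 0.14 under 5000 bases, 0.03 from 5000 to 15000 bases and -0.04 over 15000 bases. The members had 0.05 (30 genes), -0.02 (42) and -0.08 (16) in the same classes. Across members, length and fold change correlated with r = -0.37 (Spearman -0.36, n = 88), and over all tested genes with r = -0.30 (-0.35); all points share the 4 libraries. Under 5000 bases, 16.7% of the members were lower and 16.7% higher without overlap, beside 9.15% and 36.2% of all tested genes. From 5000 to 15000 bases these shares were 23.8% and 9.52%, beside 16.5% and 24.5%. Over 15000 bases they were 43.8% (7 of 16) and 12.5%, beside 30.0% and 14.5%. After subtracting the median of genes of like length, 0 members passed an adjusted p in limma, 6 (6.82%, beside 5.4% of all tested genes) were lower at an unadjusted p under 0.05, and the members' median was -0.06. Without overlap, 23 members were then lower (26.1%, beside 20.1% of all tested genes) and 3 higher (3.41%, beside 19.8%). What lies behind the trend with length was not tested.

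**Figure D4:**
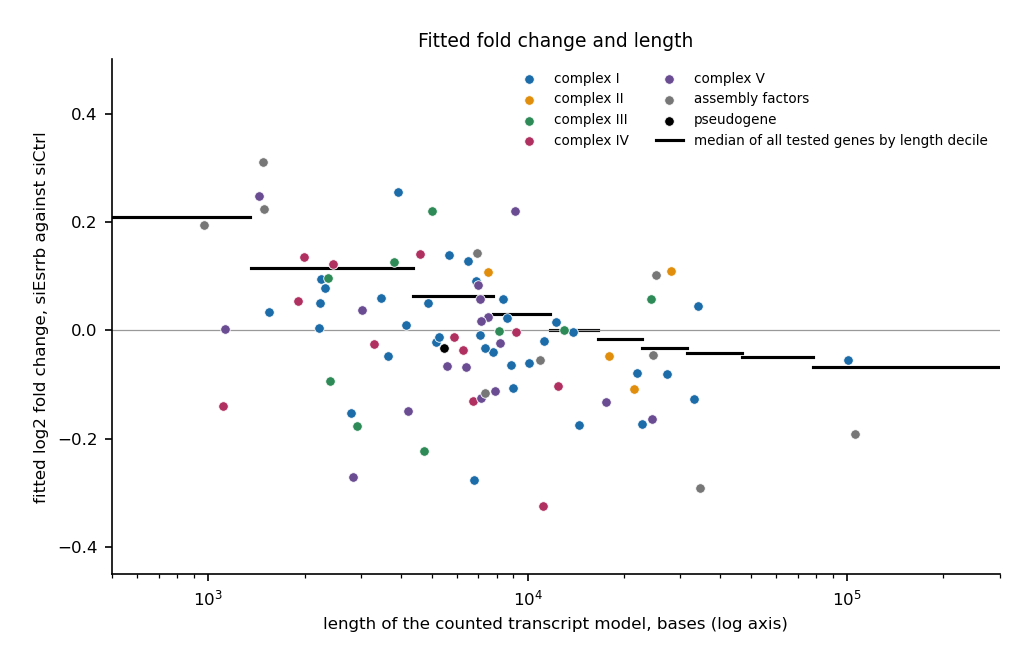
Fitted log2 fold change of the 88 tested members (points, coloured by complex) against the length of the transcript model on a log axis; black bars give the median of all tested genes in each length decile. The bars run from 0.21 for the shortest genes to -0.07 for the longest.

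Genes that serve the same pathway under other symbols were read from lists. Of 37 further assembly factors 36 were found and 33 tested, with a median of 0.03. Without overlap, 8 were lower (24.2%, beside 22.0% of all tested genes) and 9 higher (27.3%, beside 21.8%). Sco2, a copper chaperone of complex IV, had 0.602 and 0.748 scaled RPKM in siCtrl and 1.00 and 0.983 in siEsrrb (log2 fold change 0.35, SE 0.09, limma adjusted p 0.342). Uqcc3, a complex III factor, had 1.47 and 1.36 against 1.85 and 1.68 (0.24, SE 0.08), from 32 to 101 reads. Both siEsrrb libraries lay above both controls in each. The 14 tested of 18 genes for cytochrome c, ubiquinone synthesis and the electron-transfer flavoprotein had a median of -0.07. Without overlap, 4 were lower (Coq5, Coq6, Etfa and Pdss2, 28.6%, beside 22.0% of all tested genes) and 0 higher (beside 21.8%).

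Among 12 factors of mitochondrial DNA copying and transcription, 11 were tested, with a median of 0.06. Without overlap, 2 were lower (18.2%, beside 22.0% of all tested genes) and 3 higher (27.3%, beside 21.8%). Polg, the catalytic subunit of the mitochondrial DNA polymerase, had 8.50 and 8.70 scaled RPKM in siCtrl and 12.0 and 11.0 in siEsrrb, well apart (log2 fold change 0.40, SE 0.11, unadjusted p 0.0197, limma adjusted p 0.358). Mterf3, a mitochondrial ribosome and transcription factor, was at -0.20 (SE 0.07). Tfam, which packages mitochondrial DNA, was at 0.05 (SE 0.11) with overlapping groups.

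The 9 tested of 11 nuclear regulators of these genes had a median of -0.01. Gabpa, the ETS subunit of GABP, had 3.45 and 3.42 scaled RPKM in siCtrl and 2.84 and 2.98 in siEsrrb (-0.21, SE 0.08, unadjusted p 0.0493, limma adjusted p 0.443). Its groups did not overlap. Esrra had 1.37 and 1.35 against 1.25 and 1.36, with overlap (-0.05, SE 0.07), and Nrf1 was at -0.12 (SE 0.11). Esrrg and Ppargc1a, the coactivator known to drive mitochondrial biogenesis, were under the minimum, at 0.00638 RPKM or less in every library. In all of these lists, 0 genes passed an adjusted p of 0.05 in limma, and 5 of the 71 tested, including those for inhibition and supercomplexes, had an unadjusted p under 0.05. Sco2, Uqcc3 and Polg were higher (4.23%, beside 5.92% of all tested genes) and Mterf3 and Gabpa lower (2.82%, beside 5.33%).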

How the data were processed

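The 4 nascent RNA libraries were grouped by sample title, which numbers the second replicate only. Each file holds RPKM per RefSeq transcript as the authors deposited them (34929 transcripts, 34631 with a symbol). The submitters' processing notes name CASAVA 1.4, TopHat2 and mouse build mm9, with Bowtie 1.1.1 and Bowtie2 for replicate 1. Counting program, annotation version, strand, multimapping and filters were not given in the sources used here, so overlapping genes, 29 of the 88 tested members, cannot be told apart from their partners.

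RPKM were multiplied by median-of-ratios factors (0.925 to 1.09). A pseudocount of 0.5 was added, and limma 3.58.1 (R 4.3.3, with a trend and no replicate block) was run on the log2 values of the 9758 genes whose mean RPKM reached 0.5. p-values are two-sided, with Benjamini-Hochberg adjustment over these genes and a threshold of 0.05. A fold change on the log2(RPKM + 0.5) scale understates that of low genes. Percent of control has no pseudocount. Low RPKM are whole multiples of 1 read, and the length of each transcript model was solved so that its reads are whole. Reads came out whole within 0.0002 of a read for all 31533 transcripts above 0 whose length could be solved. This follows from how the length was solved and is no check of the reads. The reads served for depths, counting intervals (95%, normal approximation of the log ratio) and voom. A length is known only up to a whole multiple, so reads of a few genes (such as Ndufa4l2) may be higher by a whole factor. The fits were tested on simulated data. Promoter sequences are RefSeq's for GRCm38.p6, and no mm9 coordinates were used.

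Members and gene lists were chosen with earlier results of these data known. Text names Esrrb, the most abundant member of each complex, up to 3 members per direction and complex with the largest fold change among those whose groups do not overlap, members with an unadjusted p under 0.05, core subunits, isoform sets and members under the minimum; Ndufb11, Ndufa4l2, Ndufs4, Ndufs5-ps and the genes of other lists were named after their values were seen. The values of 1 member are not reported here; it is included in counts and medians. The 15 other settings are pseudocounts, filters, scalings, transcript choice, replicate block, voom, length correction and leaving out each library; 2 were added after the data were seen.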

Additional observations from a re-analysis of the deposited data

How the results depend on the processing

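With 2 libraries per group, no setting of limma on log2 RPKM passed any member over all genes, and 88 members were fitted in all but the filter settings. At a mean RPKM of at least 2, 0 members were lower at an unadjusted p under 0.05 (beside 5.16% of all genes tested there). At that p 0 were higher (beside 6.47%). Without overlap, 4 were lower and 2 higher (14.3% and 7.14%, beside 18.5% and 24.4%). Complex V had a median of 0.017. Of complex II only Sdha was left, so its value of 0.11 is the fold change of that gene. With no filter, 1 member was higher at that p (1.01%, beside 5.29% of all genes fitted there) and 2 lower (2.02%, beside 4.17%). Without scaling, 1 was lower at that p (1.14%, beside 3.76% of all tested genes) and 0 higher (beside 4.64%). Without overlap, 12 were then lower and 6 higher (13.6% and 6.82%, beside 18.7% and 16.6% of all tested genes), with complex V at -0.062. The medians of complexes II and III were negative too without scaling. With the length correction, 6 were lower at that p (6.82%, beside 5.4% of all tested genes) and 0 higher (beside 4.55%). Without overlap, 23 were then lower (26.1%, beside 20.1%) and 3 higher (3.41%, beside 19.8%), and complex V was at -0.12.

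The replicate number as a block, which no label states as a pairing, gave 11 lower (12.5%, beside 12.3% of all tested genes) and 2 higher members (2.27%, beside 13.9%) at that p in limma and 0 past the adjusted threshold. Same-numbered libraries deviated together (r = 0.386 over 9758 genes). With voom on recovered reads and the block, 8 members passed the adjusted threshold (Atp5c1, Cox5a, Ndufaf2, Ndufaf5, Ndufb4, Ndufb5 and Ndufv2 lower, Atp5a1 higher; smallest adjusted p 9.4e-07), 10 were lower and 2 higher at the unadjusted p (11.4% and 2.27%, beside 19.9% and 17.5% of all tested genes), complex V was at -0.048, and Esrrb passed at -0.89.

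Leaving out 1 library gave 0 to 4 lower and 0 to 4 higher members at that p (0.0% to 4.55% each way, beside 2.59% to 5.77% of all tested genes lower and 2.87% to 7.69% higher), 25 to 42 lower and 18 to 35 higher without overlap (28.4% to 47.7% and 20.5% to 39.8%, beside 32.4% to 39.9% and 33.5% to 37.2%), medians of -0.026 to 0.047 for complex II and -0.12 to -0.0092 for complex V. Cox5a, Atp5g1 and Ndufb5 kept their sign in the 14 alternatives that held them. For the fits without 1 library this was fixed in advance, because the groups of these genes did not overlap. Without siCtrl replicate 1, without siCtrl replicate 2 or without siEsrrb replicate 1, 0 members were lower at that p, and each such fit has 1 lone library assumed to vary like the other group. Added after the data were seen, members with at least 100 reads in every library (69) had 17 lower and 7 higher without overlap and complex V at -0.066. The shares over all genes with as many reads were not computed, so these counts stand without a background. Members overlapping no other gene (59), also added then, had medians of 0.11 for complex II and -0.067 for complex V. Complex II then held only Sdha, Sdhb and Sdhd, and its median is the value of Sdhd. The cause of these shifts was not tested. Depth limits the short genes most: apart from Ndufa4l2, whose reads are settled only up to a whole factor, the fewest reads of a tested member were 18 in a library (Sdhaf1).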

Other observations

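The ATP synthase inhibitor Atpif1 had 3.30 and 3.50 scaled RPKM in siCtrl and 4.02 and 3.56 in siEsrrb, above both controls by a small margin in replicate 2 (log2 fold change 0.13, SE 0.10, limma adjusted p 0.654). Higd1a and Higd2a, small proteins tied to supercomplexes, were at -0.04 (SE 0.14) and 0.17 (SE 0.27) with overlapping groups. Dmac2 and Dmac2l, which earlier symbols place with ATP synthase, were at 0.02 and -0.01.

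In the deposited RPKM, before scaling, 84 of the 88 tested members were higher in siCtrl replicate 2 than in siCtrl replicate 1, and 73 were higher in siEsrrb replicate 2 than in siEsrrb replicate 1, against 7784 and 7694 of all 9758 tested genes. After scaling the members' counts were 57 and 43 of 88, against 4930 and 4939 of all 9758 tested genes.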
